A study of Mus musculus with 6 samples.

Results

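The 10 genes described here encode enzymes that build the sphingolipids of myelin and the fatty acids in them: Sptlc2, Cers2, Fa2h, Ugt8a, Gal3st1, Fasn, Elovl1, Elovl7, Scd1 and Scd2. They were taken by gene name from a table of 36629 genes, and each had exactly 1 row. The RNA came from the cord of C57/BL6 mice aged 3 to 5 weeks, taken 3 days after surgery as bulk tissue from the level of T8 to T12. Sham mice (3 libraries, which carry the label untreated) had the cord exposed by removing the vertebral roof at T9/T10. SCI mice (spinal cord injury, 3 libraries) had the same exposure, after which a vascular clip with a closing force of 60 g crushed the cord for 5 s. No transgene, deletion or drug is named for either group, so as far as the labels say the groups differ by the crush alone. The labels do not say that each library came from a different animal, so the p-values below measure only the spread between these libraries.

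Myelin is the layered membrane that oligodendrocytes wrap around axons, and it is rich in galactosylceramide and its sulphated form, sulfatide. Serine palmitoyltransferase starts the route by joining serine to a fatty acyl-CoA, ceramide synthases then attach a second fatty acid, and galactose and sulphate are added in turn. Many of the fatty acids of myelin lipids are very long or carry a hydroxyl group, so the route draws on fatty acid synthase, elongases, desaturases and a fatty acid hydroxylase.

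Values are FPKM, which count fragments relative to the length of the gene and the size of the library. They can be compared between genes of the same library. Comparisons between libraries also depend on what else each library holds. The files hold no read counts, so the depth behind a value is unknown. FPKM summed to 716215 to 734791 per library. The libraries of the sham group correlated with each other at r = 0.987 across tested genes, those of the SCI group at 0.971 to 0.985. SCI replicate 2 stood apart: haemoglobin genes took 6.16% of its FPKM, against 0.656% and 0.211% in SCI replicates 1 and 3 and 0.109% to 0.126% in the sham libraries. Results are therefore given without it as well where that mattered.

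After injury the 10 genes did not move as a block. Cers2, Elovl1 and Sptlc2 rose, by 1.2-fold to 1.36-fold. Fa2h, Ugt8a, Elovl7 and Scd2 fell, with sham levels 1.36-fold to 1.84-fold those after injury. Gal3st1, Fasn and Scd1 were lower on average in SCI and did not pass the threshold, which was an adjusted p under 0.05 in limma with Benjamini-Hochberg adjustment over the 17435 genes tested. All 10 were among the genes tested. The 7 of 10 that passed compare with 57.5% of all genes tested, the 3 that rose with 26.7% and the 4 that fell with 30.8%, so the number of calls was near that of the transcriptome as a whole. Without SCI replicate 2, 3 rose and 5 fell, with Scd1 added to those that fell. The FPKM of the groups did not overlap for 9 of 10, against 67.6% of all genes tested. The median change of the 10 was −0.32 on the log2 scale, against −0.08 over all genes tested. Here and below, a log2 change is the SCI mean minus the sham mean of log2(FPKM + 1), a scale that makes the changes of weakly expressed genes look smaller, and folds are ratios of mean FPKM.

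**Figure D1:**
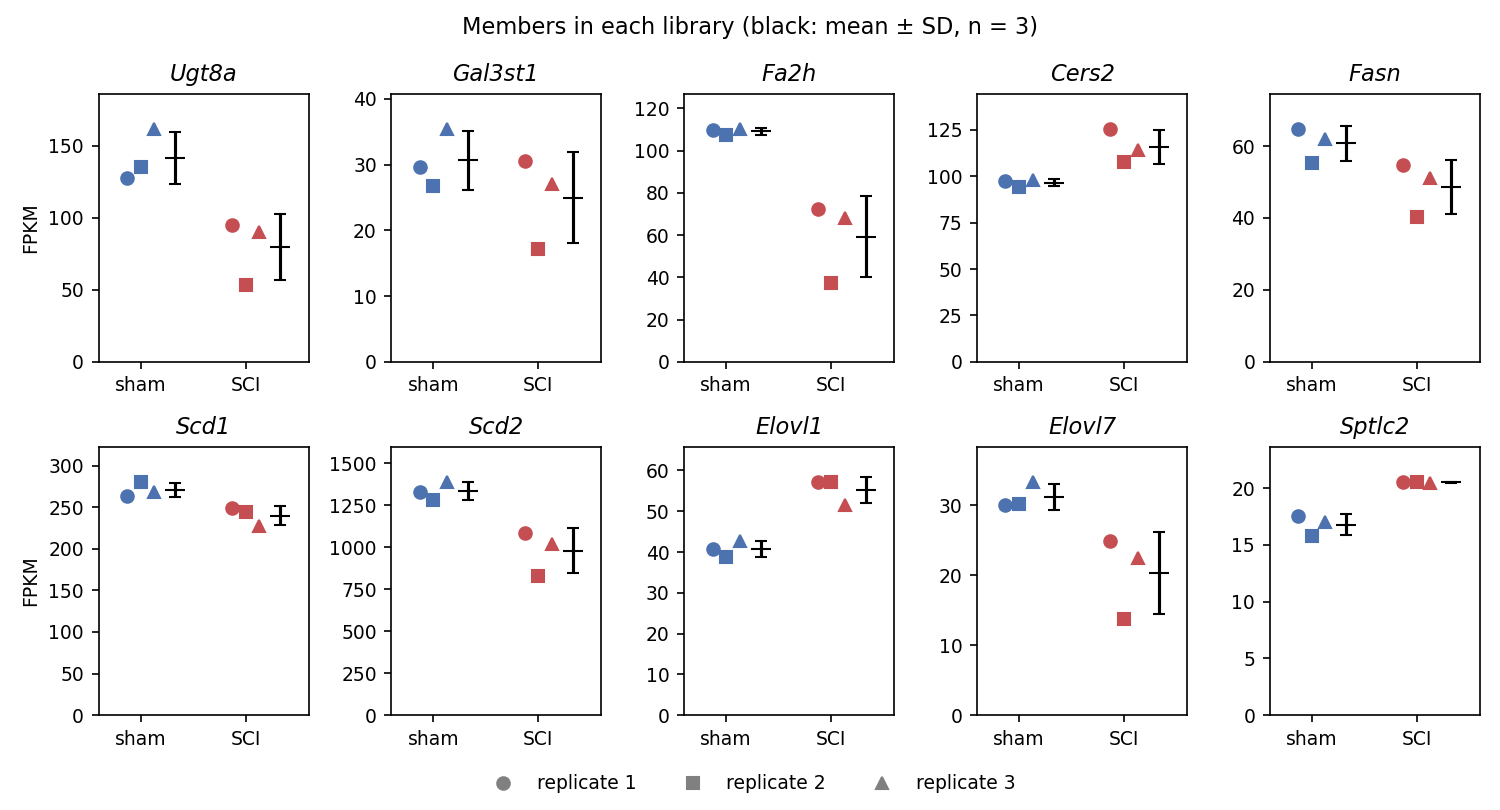
FPKM of each of the 10 genes (y axes start at 0, 1 panel per gene) in the 3 sham (blue) and 3 SCI (red) libraries, with marker shape for the replicate number and black bars for the mean ± SD. The groups overlap only for Gal3st1, and SCI replicate 2 (red square) is the lowest SCI library for 7 genes.

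Promoter sequences are shown for called genes on either side, since they place the rising and the falling genes next to each other. RefSeq (GRCm38.p6) held a promoter window for 7 of the 10 genes: Ugt8a, Gal3st1, Cers2, Fasn, Elovl1, Elovl7 and Sptlc2. Gal3st1 had 3 windows, and Cers2 and Elovl1 had 2 each. Only the window nearest the gene start in the files was searched for each gene. The 250 bases before the RefSeq start are printed 5′ to 3′ on the strand of the gene, first for the falling Ugt8a (chr3:125938653-125938902, minus strand) and Elovl7 (chr13:108214154-108214403, plus strand). They are followed by the rising Elovl1 (chr4:118427843-118428092, plus strand) and Sptlc2 (chr12:87388356-87388605, minus strand). Capitals mark matches to the NF-Y box (CCAAT, or ATTGG on the opposite strand). The window of the rising Cers2 is not printed, because its RefSeq start lies downstream of the gene start in the files, so that the window falls inside the gene.
Ugt8a: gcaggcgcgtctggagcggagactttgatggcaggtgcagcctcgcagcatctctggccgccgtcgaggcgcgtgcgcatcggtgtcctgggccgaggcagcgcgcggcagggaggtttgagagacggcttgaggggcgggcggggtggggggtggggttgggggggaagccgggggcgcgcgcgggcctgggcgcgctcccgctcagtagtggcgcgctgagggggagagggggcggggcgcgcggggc
Elovl7: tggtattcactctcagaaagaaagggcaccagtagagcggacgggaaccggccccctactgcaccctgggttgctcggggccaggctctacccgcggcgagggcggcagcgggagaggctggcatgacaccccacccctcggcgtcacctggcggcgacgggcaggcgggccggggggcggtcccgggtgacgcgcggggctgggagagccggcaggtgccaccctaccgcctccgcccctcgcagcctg
Elovl1: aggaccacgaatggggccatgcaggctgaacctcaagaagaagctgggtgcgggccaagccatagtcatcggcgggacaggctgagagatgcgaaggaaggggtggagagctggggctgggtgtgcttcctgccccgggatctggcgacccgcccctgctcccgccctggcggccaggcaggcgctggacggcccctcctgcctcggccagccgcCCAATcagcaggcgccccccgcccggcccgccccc
Sptlc2: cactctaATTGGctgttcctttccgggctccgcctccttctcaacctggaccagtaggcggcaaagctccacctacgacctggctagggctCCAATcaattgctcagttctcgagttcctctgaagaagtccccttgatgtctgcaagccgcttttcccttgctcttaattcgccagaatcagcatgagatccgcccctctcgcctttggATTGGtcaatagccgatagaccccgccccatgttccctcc
Each of the rising genes held the NF-Y box: Sptlc2 held 3 matches (243, 159 and 40 bases upstream of the start), Cers2 1 (185 bases upstream of that inner start) and Elovl1 1 (35 bases upstream). The printed windows of Ugt8a and Elovl7 held none, and the falling Fa2h and Scd2 had no window to search. Of the genes that did not pass, Fasn held 3 matches (90, 62 and 59 bases upstream, the last pair overlapping) and Gal3st1 held 1 at 17 bases. The NF-Y box was present in 37.41% of the 32851 promoter windows of 300 bases, both strands searched, so it is a common match. Cers2 held the E-box (CACGTG) 129 bases upstream of the same start, a match found in 7.15% of windows. None of the searched windows of the 7 genes held a sterol regulatory element (TCACNCCAC, 1.24% of windows) or a SOX box (ACAAAG, 18.71%). GC content was 76.8% for Ugt8a, 73.6% for Elovl7, 74.8% for Cers2, 72.0% for Elovl1 and 55.2% for Sptlc2, against a median of 52.4% over all windows. A match is a run of letters, not a bound site.

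The first step of the route is made by Sptlc2, a catalytic subunit of serine palmitoyltransferase (ENSMUSG00000021036, chromosome 12, 87305058 to 87388355, minus strand, GRCm38). Its FPKM was 17.6, 15.8 and 17.0 in the sham libraries and 20.6, 20.6 and 20.5 in the SCI libraries. The SCI libraries lay almost on top of each other and all above the sham libraries. Sptlc2 rose by 0.28 on the log2 scale (SE 0.08; adjusted p = 0.016 in limma; 95% interval 0.10 to 0.46, which like all intervals below is for 1 gene and unadjusted). Without sham replicate 2 the change was 0.24 and did not pass (adjusted p = 0.064 in limma). Its partner subunit Sptlc1 also rose, from 24.4 ± 1.49 to 29.3 ± 1.43 FPKM (SD, n = 3; log2 change 0.26; adjusted p = 0.028 in limma). The ratio of Sptlc2 to Sptlc1 was 0.691 ± 0.052 in sham and 0.702 ± 0.034 in SCI libraries (SD, n = 3), and the groups overlapped.

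Cers2, the ceramide synthase that attaches very long fatty acids (ENSMUSG00000015714, chromosome 3, 95314791 to 95323599, plus strand), was the other early enzyme that rose. Its FPKM was 97.3, 94.4 and 98.2 in sham and 126, 108 and 114 in SCI libraries. Every SCI library lay above every sham library, and the spread was wider after injury. The rise was 0.26 on the log2 scale (SE 0.08; 95% interval 0.07 to 0.44; adjusted p = 0.026 in limma). The call was sensitive to the libraries used: leaving out sham replicate 1, 2 or 3, or SCI replicate 1 or 3, ended the call, at changes from 0.20 to 0.27, and without SCI replicate 2 it was 0.31 and passed. Cers2 overlaps the opposite-strand genes Setdb1 by 75 bases and 6330562C20Rik by 327 bases. Neither passed the test, with means of 16.0 and 1.16 FPKM in sham and 15.3 and 1.64 in SCI libraries. Whether the quantification used strand is not given in the sources used here.

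Fa2h, the hydroxylase that makes the hydroxylated fatty acids of myelin galactolipids (ENSMUSG00000033579, chromosome 8, 111345135 to 111393824, minus strand), showed the largest fall of the 10. Its FPKM was 110, 107 and 110 in the sham libraries and 72.5, 37.3 and 68.1 in the SCI libraries. The sham libraries were within a few FPKM of each other, and all SCI libraries lay far below them, SCI replicate 2 lowest. The coefficient of variation was 1.49% in sham and 32.3% in SCI libraries. Fa2h fell by 0.93 on the log2 scale (SE 0.23; 95% interval −1.47 to −0.38; adjusted p = 0.011 in limma), 1.84-fold in mean FPKM. The call held with any library left out, over a range of −1.10 to −0.63, and the smallest fall was without SCI replicate 2 (adjusted p = 0.00022 in limma). In bulk tissue, fewer cells of a type and less RNA per cell cannot be told apart, for this gene or any below.

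Ugt8a, which adds galactose to ceramide and so makes galactosylceramide (ENSMUSG00000032854, chromosome 3, 125865271 to 125938619, minus strand), fell by nearly as much. Its FPKM was 127, 135 and 162 in sham and 95.2, 53.7 and 90.2 in SCI libraries. The groups did not overlap, with SCI replicate 2 again lowest. The fall was 0.86 on the log2 scale (SE 0.22; log2 change −0.86; 95% interval −1.36 to −0.35; adjusted p = 0.012 in limma), 1.77-fold in mean FPKM. It passed with any library left out (−1.0 to −0.60). The ratio of Fa2h to Ugt8a was 0.779 ± 0.090 in sham and 0.737 ± 0.037 in SCI libraries (SD, n = 3), with overlapping groups.

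Gal3st1 completes the route by adding sulphate to galactosylceramide to give sulfatide (ENSMUSG00000049721, chromosome 11, 3983636 to 3999326, plus strand). Its FPKM was 29.7, 26.7 and 35.5 in sham and 30.6, 17.2 and 27.0 in SCI libraries. SCI replicates 1 and 3 fell within the sham range and SCI replicate 2 lay below it. The difference of −0.31 (95% interval −0.81 to 0.17; adjusted p = 0.23 in limma) did not pass, and it was −0.08 without SCI replicate 2. The ratio of Ugt8a to Gal3st1, computed after the values were seen and so given without a test, was 4.29, 5.05 and 4.56 in sham and 3.11, 3.12 and 3.34 in SCI libraries. Every SCI library had less Ugt8a per Gal3st1 than every sham library, including SCI replicate 2.

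Fasn, the synthase that makes palmitate from acetyl and malonyl units (ENSMUSG00000025153, chromosome 11, 120805846 to 120824547, minus strand), was measured at 64.9, 55.3 and 62.0 FPKM in sham libraries. In SCI libraries it was 54.8, 40.3 and 51.1 FPKM. All SCI values lay below the sham values, though SCI replicate 1 and sham replicate 2 differed by less than 1 FPKM. The difference of −0.32 (95% interval −0.61 to −0.03) missed the threshold (adjusted p = 0.062 in limma). Without SCI replicate 2 it was −0.19 (adjusted p = 0.089 in limma). It passed without SCI replicate 1 (−0.41, adjusted p = 0.040 in limma) and with quantile normalization (−0.30) or FPKM rescaled without mitochondrial and haemoglobin genes (−0.33).

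Scd2 and Scd1 encode stearoyl-CoA desaturases, which put the first double bond into saturated fatty acids. Both genes lie on chromosome 19. Scd2 (ENSMUSG00000025203) is at 44293674 to 44306864 on the plus strand. Scd1 (ENSMUSG00000037071) is at 44394455 to 44407709 on the minus strand, a position that differs from the one in GENCODE M21. Scd2 was the most abundant of the 10, at 1329, 1282 and 1390 FPKM in sham and 1085, 828 and 1021 in SCI libraries. All SCI libraries were lower than all sham libraries. Scd2 fell by 0.46 on the log2 scale (SE 0.12; log2 change −0.46; 95% interval −0.73 to −0.18; adjusted p = 0.014 in limma). Without sham replicate 3 the change was −0.43 with an adjusted p of 0.052 in limma, and without SCI replicate 2 it was −0.34 and passed. With no filter on low values, when many more genes enter both the fit and the adjustment, the adjusted p of Scd2 was 0.069 in limma.

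Scd1 was at 264, 281 and 268 FPKM in sham and 249, 244 and 227 in SCI libraries. The groups did not overlap, but the distance between them was small, and the change of −0.17 (95% interval −0.35 to −0.003; adjusted p = 0.076 in limma) did not pass. It passed without SCI replicate 2 (−0.19; adjusted p = 0.044 in limma) and with quantile normalization (−0.21). Scd1 made up 16.6%, 18.0% and 16.2% of the summed FPKM of Scd1 and Scd2 in sham libraries and 18.6%, 22.8% and 18.2% in SCI libraries. Its share was higher in every SCI library (exact permutation p = 0.1, two-sided, the smallest that 3 against 3 libraries can give). The sum itself was 1605 ± 48.7 FPKM in sham and 1218 ± 133 in SCI libraries (SD, n = 3). Reads of such related genes can be split between them by the counting, which makes the share less certain than the sum.

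The elongases went opposite ways. Elovl1, which lengthens saturated fatty acids into the very long range (ENSMUSG00000006390, chromosome 4, 118428093 to 118432953, plus strand), was at 40.6, 38.8 and 42.7 FPKM in sham and 57.2, 57.1 and 51.6 in SCI libraries. The SCI libraries stood well above the sham libraries. Elovl1 rose by 0.43 on the log2 scale (SE 0.08; 95% interval 0.25 to 0.62; adjusted p = 0.0029 in limma), with the smallest adjusted p of the 10, and it passed with any library left out (0.40 to 0.48). Its last 53 bases overlap the end of the opposite-strand gene Cdc20, a cell division gene. Cdc20 was at 1.41, 1.63 and 0.57 FPKM in sham and 32.1, 37.3 and 25.0 in SCI libraries, and the part of shared reads in the rise of Elovl1 was not tested.

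Elovl7, an elongase of saturated long chain fatty acids (ENSMUSG00000021696, chromosome 13, 108214404 to 108285683, plus strand), was at 30.1, 30.3 and 33.4 FPKM in sham and 24.9, 13.7 and 22.4 in SCI libraries. No SCI library reached the sham range. Elovl7 fell by 0.63 on the log2 scale (SE 0.20; log2 change −0.63; 95% interval −1.10 to −0.16; adjusted p = 0.029 in limma). Leaving out any sham library ended the call (adjusted p from 0.064 to 0.087 in limma, at changes of −0.66 to −0.59), and without SCI replicate 2 it passed at −0.39. With no filter on low values its adjusted p was 0.069 in limma.

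**Figure D2:**
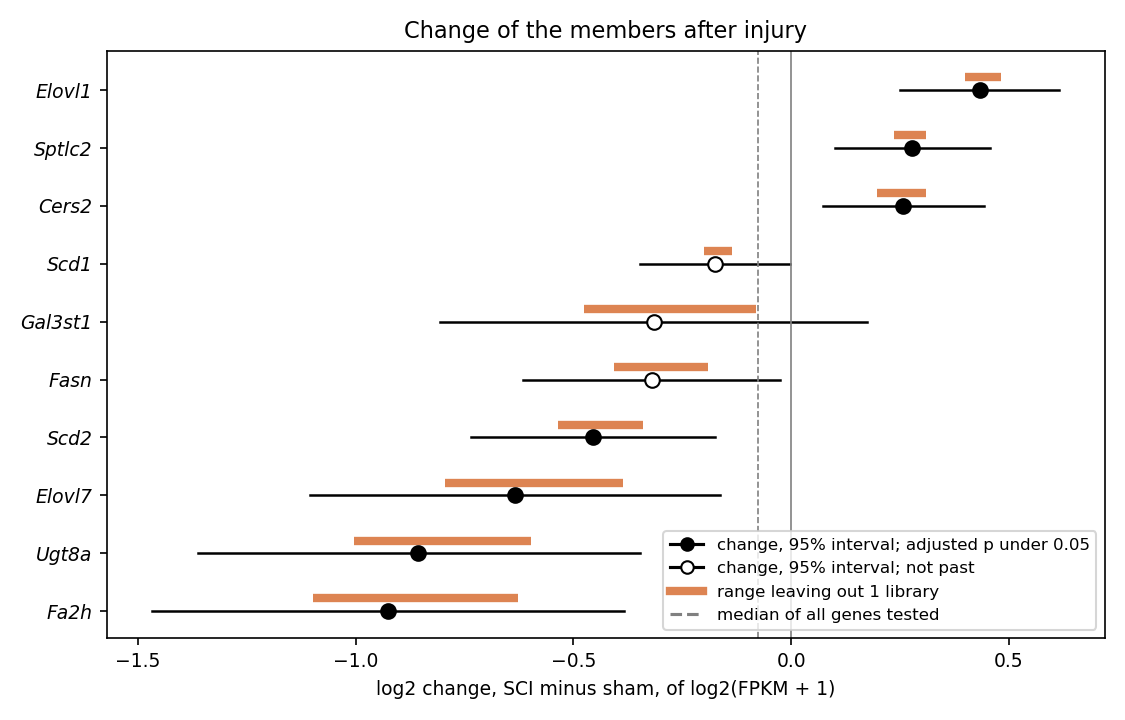
Log2 change (SCI minus sham, x axis) of each of the 10 genes with its 95% interval (black line; filled points passed the threshold), the range over the fits that leave out 1 library (orange bar), and the median of all genes tested (dashed line). Elovl1, Sptlc2 and Cers2 lie right of 0 and the other 7 left of it, and no orange bar crosses 0.

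The makeup of the gene families also differed. These shares, like the ratios above, were chosen after the values were seen and carry no test. Elovl1 supplied 16.3%, 14.6% and 15.7% of the summed FPKM of Elovl1 to Elovl7 in sham libraries and 25.7%, 30.5% and 23.2% in SCI libraries. Its share was larger in every SCI library, while that of Elovl7 was 11.9% ± 0.465 in sham and 9.53% ± 1.98 in SCI libraries (SD, n = 3). Elovl4, the elongase that makes ultra long fatty acids, went from 17.8% ± 0.832 to 10.7% ± 1.61. The share of Elovl6 went from 10.24% ± 0.56 to 8.01% ± 0.21, without overlap. Elovl5, an elongase of polyunsaturated fatty acids and the most abundant of the family, stayed within overlapping ranges, 38.7% ± 1.51 and 39.3% ± 0.653. Cers2 made up 54.7%, 57.3% and 56.8% of the 6 ceramide synthases in sham and 63.8%, 64.1% and 60.8% in SCI libraries. Cers2 was thus the leading ceramide synthase in all 6 libraries, and its share was above the sham range in each SCI library. So were the shares of Cers5 (14.13% ± 0.73 in sham and 17.01% ± 0.44 in SCI libraries; SD, n = 3) and Cers6 (3.01% ± 0.06 and 3.80% ± 0.50). Those of Cers1 (18.73% ± 2.12 and 11.45% ± 1.61) and Cers4 (7.65% ± 0.16 and 4.67% ± 0.12) were below it.

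**Figure D3:**
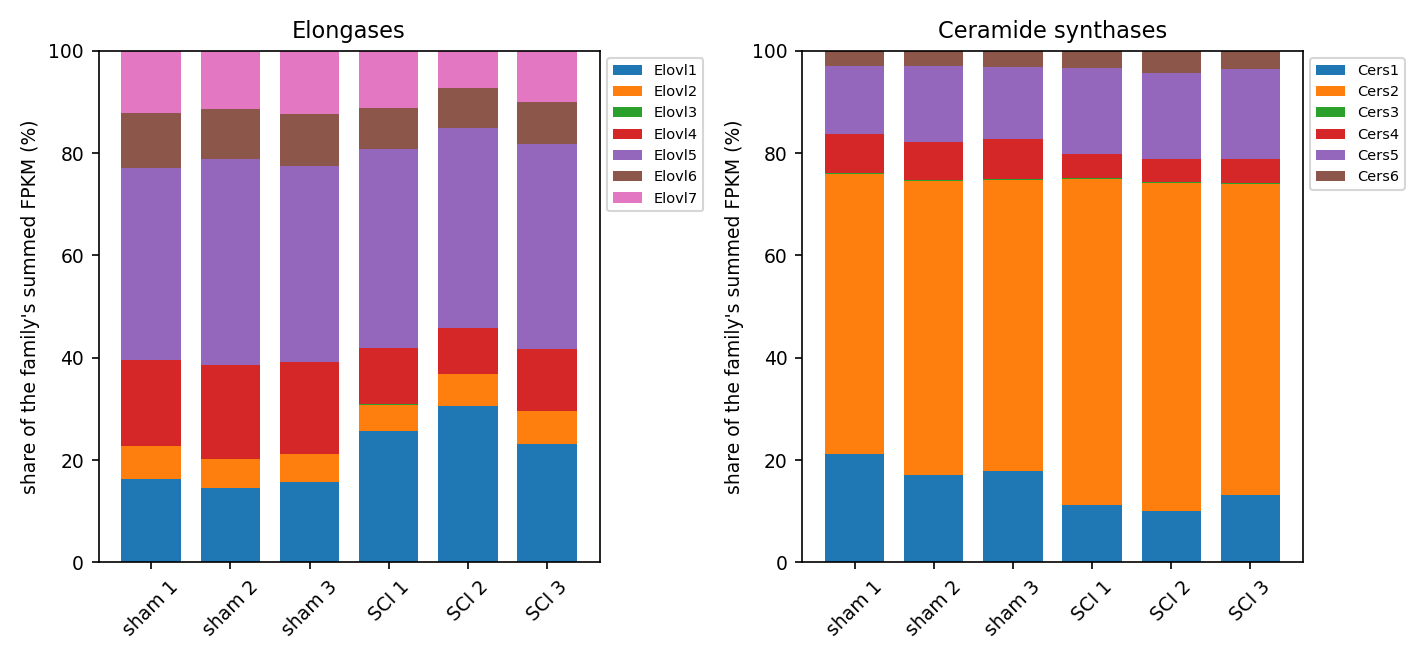
Share (%, y axis, 0 to 100) of the summed FPKM of the elongases (left) and ceramide synthases (right) that each gene supplied in each of the 6 libraries (x axis). Elovl1 goes from 14.6% to 16.3% in sham to 23.2% to 30.5% in SCI libraries, and Cers2 from 54.7% to 57.3% in sham to 60.8% to 64.1% in SCI libraries.

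The markers of myelinating oligodendrocytes are the measure beside which these changes stand. Of 15 such markers, 8 fell, 3 rose and 4 did not pass, with a median log2 change of −0.49. Mbp, a main protein of compact myelin and the most abundant marker, fell from 3202 ± 87.9 to 2165 ± 93.9 FPKM (SD, n = 3). Trf, which encodes the iron carrier transferrin, rose by 1.2 on the log2 scale. The summed FPKM of the 15 was 9685 to 10340 in sham and 10150, 6784 and 9431 in SCI replicates 1, 2 and 3, so SCI replicate 2 was low for the markers as it was for Fa2h, Ugt8a and Elovl7. Of 9 markers of oligodendrocyte precursors, 2 rose and 7 did not pass.

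Subtracting the mean log2 level of the 15 markers from each gene in each library split the 10 genes into 3 sets. Fa2h was lower relative to the markers in every SCI library (−1.95, −2.27 and −1.96) than in any sham library (−1.36, −1.50 and −1.43), a difference of −0.63. Ugt8a differed by −0.56 and Elovl7 by −0.34, also without overlap. Cers2 differed by 0.55, Sptlc2 by 0.57 and Elovl1 by 0.73, again without overlap. Each of these 6 differences had an exact permutation p of 0.1 (two-sided, the smallest possible) and 0.167 after Benjamini-Hochberg adjustment over the 10 genes, so none could pass. The third set stayed closer to the markers: Gal3st1 differed by −0.02, Fasn by −0.02, Scd1 by 0.12 and Scd2 by −0.16, with overlapping groups. The mean of the markers itself was 8.15, 8.26 and 8.23 in sham and 8.14, 7.53 and 8.07 in SCI libraries. Its difference was −0.30, with SCI replicate 2 lowest and SCI replicate 1 close to sham replicate 1. The mean of the 5 most abundant, Trf among them, differed by only 0.02. Against those 5, Fa2h and Ugt8a differed by −0.95 and −0.88, Elovl7 by −0.66, Cers2, Sptlc2 and Elovl1 by 0.23, 0.26 and 0.41, and Gal3st1, Fasn, Scd1 and Scd2 by −0.34, −0.34, −0.20 and −0.48. The rising genes thus stood less far above these 5, and the third set below them, with Scd1 changing sign. Without SCI replicate 2, the differences from the 15 markers were −0.52 for Fa2h, −0.49 for Ugt8a and −0.28 for Elovl7. They were 0.41 for Cers2, 0.38 for Sptlc2, 0.51 for Elovl1 and −0.08 for Scd1. Those of Gal3st1, Fasn and Scd2 were 0.025, −0.088 and −0.236.

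**Figure D4:**
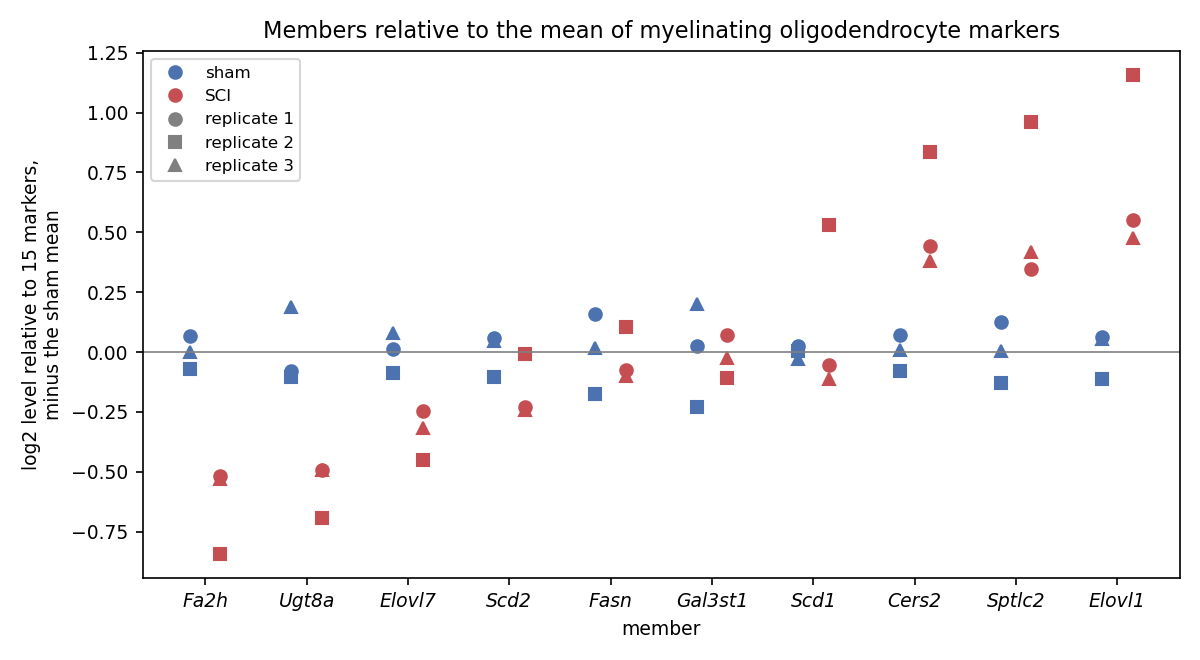
Level of each of the 10 genes (x axis) relative to the mean of the 15 oligodendrocyte markers, on the log2 scale and minus the mean of the sham libraries (y axis), with 1 point per library (blue sham, red SCI, shape for the replicate number). The SCI points of Fa2h, Ugt8a and Elovl7 all lie below the sham points and those of Cers2, Sptlc2 and Elovl1 all above them, with SCI replicate 2 farthest from 0 in these 6.

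Other cell types moved with the groups too. Schwann cells, which make the myelin of peripheral nerve with the same lipids, had 5 of 8 markers lower, 1 higher and 2 not past. Their summed FPKM was 1668, 573 and 1690 in sham and 156, 368 and 191 in SCI libraries. Sham replicate 2 had the least of these markers among the sham libraries, and it was also the lowest sham library for 7 of the 10 genes, with Ugt8a, Scd1 and Elovl7 the exceptions. All 13 markers of microglia and macrophages rose, and their summed levels were 288 to 348 FPKM in the sham libraries and 2194 to 3236 FPKM after injury. Of 8 endothelial markers 7 rose and 1 fell, and of 8 neuronal markers 7 fell, with sums of 4446 to 5356 FPKM in sham libraries and 1358 to 2380 in SCI libraries. Adipocytes also express Fasn and Scd1 strongly. Their 8 markers summed to between 16.0 and 24.8 FPKM in sham libraries, and between 17.1 and 25.4 after injury, with Plin1 and Lep too low to be tested. Of the 6 tested, 2 rose (Fabp4 and Plin4), 1 fell (Cidea) and 3 did not pass, so the sum hides moves both ways. What part these cells had in the rises of Cers2, Elovl1 and Sptlc2 or in the other changes was not tested.

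Around Sptlc2 and Cers2, the list of serine palmitoyltransferase and de novo ceramide genes moved both ways. Its counts, like those of the lists below, stand beside 26.7% higher, 30.8% lower and a median of −0.08 over all genes tested, and no list was tested as a group. Of 16 genes 14 were tested, 6 rose, 4 fell and 4 did not pass, with a median log2 change of −0.02. The largest change was in Sptssb, a small subunit that shifts serine palmitoyltransferase toward longer substrates. It was at 13.7, 15.1 and 15.8 FPKM in sham and 3.90, 2.33 and 5.93 in SCI libraries. All SCI values lay far below the sham values, a fall of 1.71 on the log2 scale (adjusted p = 0.0011 in limma). The alternative small subunit Sptssa rose, from 59.5 ± 3.79 to 82.0 ± 3.35 FPKM (SD, n = 3; log2 change 0.46). Sptssb was 20.0% ± 1.51 of the summed FPKM of both small subunits in sham and 4.68% ± 1.94 in SCI libraries. Ormdl2, one of the proteins that inhibit the enzyme, rose by 0.89 on the log2 scale, from 5.67 ± 0.765 to 11.3 ± 0.614 FPKM. Degs1, the desaturase that turns dihydroceramide into ceramide, was at 104 ± 4.66 and 104 ± 5.78 FPKM (log2 change −0.00; 95% interval −0.18 to 0.17).

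Of 9 genes for other sphingolipid head groups 5 fell, 2 rose and 2 did not pass (median −0.39). St8sia1, a sialyltransferase of ganglioside synthesis, fell by 1.01 on the log2 scale (18.2 ± 1.05 to 8.56 ± 1.13 FPKM; SD, n = 3). St3gal5, which makes the simplest ganglioside, fell by 0.71. Sgms2, a sphingomyelin synthase, rose by 0.79, and Gltp, a glycolipid transfer protein, rose by 0.76, from 140.5 ± 14.0 to 241.9 ± 54.2 FPKM. Ugcg, which adds glucose to ceramide where Ugt8a adds galactose, fell by 0.39 (adjusted p = 0.0080 in limma). The share of Ugt8a in the summed FPKM of both was 81.3% ± 2.37 and 75.7% ± 6.34, with overlapping groups.

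Of 18 genes for sphingolipid degradation 9 rose, 1 fell and 8 did not pass (median 0.29), beside 26.7% higher and 30.8% lower over all genes tested. Sgpl1, the lyase that cleaves phosphorylated sphingosine, rose 3.50-fold from 17.1 ± 1.23 to 59.8 ± 7.28 FPKM (SD, n = 3; log2 change 1.75; adjusted p = 3e-05 in limma). Psap, the precursor of the saposins, rose by 0.33 and was called in 3 of the 6 fits that leave out a library. The enzymes that undo the steps of Ugt8a and Gal3st1 did not pass: Galc, which removes the galactose, was at 5.62 ± 0.374 and 6.86 ± 0.439 FPKM (adjusted p = 0.062 in limma), and Arsa, which removes the sulphate, at 19.7 ± 0.967 and 19.6 ± 3.50. Both were named after their values were seen. The rise of the macrophage markers stands beside the rise of Sgpl1, and its part was not tested.

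Upstream of Fasn, the genes that supply acetyl-CoA and malonyl-CoA had 3 of 8 lower, 1 higher and 4 not past (median −0.42). Acly, which makes acetyl-CoA from citrate, fell from 196 ± 10.6 to 115 ± 21.0 FPKM (SD, n = 3; log2 change −0.77). Acss2, which makes it from acetate, fell by 0.81 on the log2 scale, and Thrsp, a promoter of lipid synthesis, fell by 1.35. Me1, a malic enzyme that supplies reducing power, rose by 0.48. Of the fatty acid elongation list, 10 of 11 were tested: 5 fell, 3 rose and 2 did not pass (median −0.27). Tecr, the reductase that ends each round of elongation, fell from 419 ± 15.3 to 205 ± 50.8 FPKM (log2 change −1.06; adjusted p = 0.0022 in limma). Hacd3, a dehydratase of the same cycle, fell by 0.55, while Hacd4, another dehydratase, rose by 1.57 from a low level of 1.45 ± 0.140 to 6.40 ± 1.53 FPKM.

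Of 14 genes for desaturation and activation of fatty acids 13 were tested: 8 fell, 3 rose and 2 did not pass (median −0.39). Acsl3, an acyl-CoA synthetase, fell from 147 ± 1.24 to 75.0 ± 8.04 FPKM (SD, n = 3; log2 change −0.96). Fads6, a member of the desaturase family, fell by 0.96, and Fads2, a desaturase of polyunsaturated fatty acids, fell by 0.37 and was called in 3 of the 6 fits that leave out a library. Acsbg1, another acyl-CoA synthetase, was the most abundant of the list at 160 ± 7.48 and 166 ± 4.49 FPKM and did not pass. The peroxisomal genes, which shorten very long fatty acids, had 3 of 10 lower, 2 higher and 5 not past (median −0.07). Abcd2, a peroxisomal transporter of very long chain acyl-CoA, fell by 0.49 on the log2 scale and was called in 3 of those 6 fits. Scp2, a peroxisomal sterol carrier protein and the most abundant gene of the list over the 6 libraries, had a change of −0.07 and did not pass.

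Of 9 regulators of lipid synthesis 3 fell, 2 rose and 4 did not pass (median 0.03). Insig1, which holds the sterol-regulated SREBP factors in the endoplasmic reticulum and is itself one of their targets, was at 116, 118 and 114 FPKM in sham and 64.4, 44.98 and 59.7 in SCI libraries. Its groups were far apart, and it fell by 1.04 on the log2 scale (adjusted p = 0.00063 in limma). Srebf2, the SREBP factor of the sterol genes, fell by 0.43 and was called in 4 of the 6 fits that leave out a library. Srebf1, the SREBP factor of the fatty acid genes, did not pass (27.9 ± 4.25 and 29.6 ± 2.06 FPKM; SD, n = 3). Mlxipl, a factor that responds to glucose, rose by 0.80 from 1.58 ± 0.277 to 3.48 ± 0.334 FPKM.

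**Figure D5:**
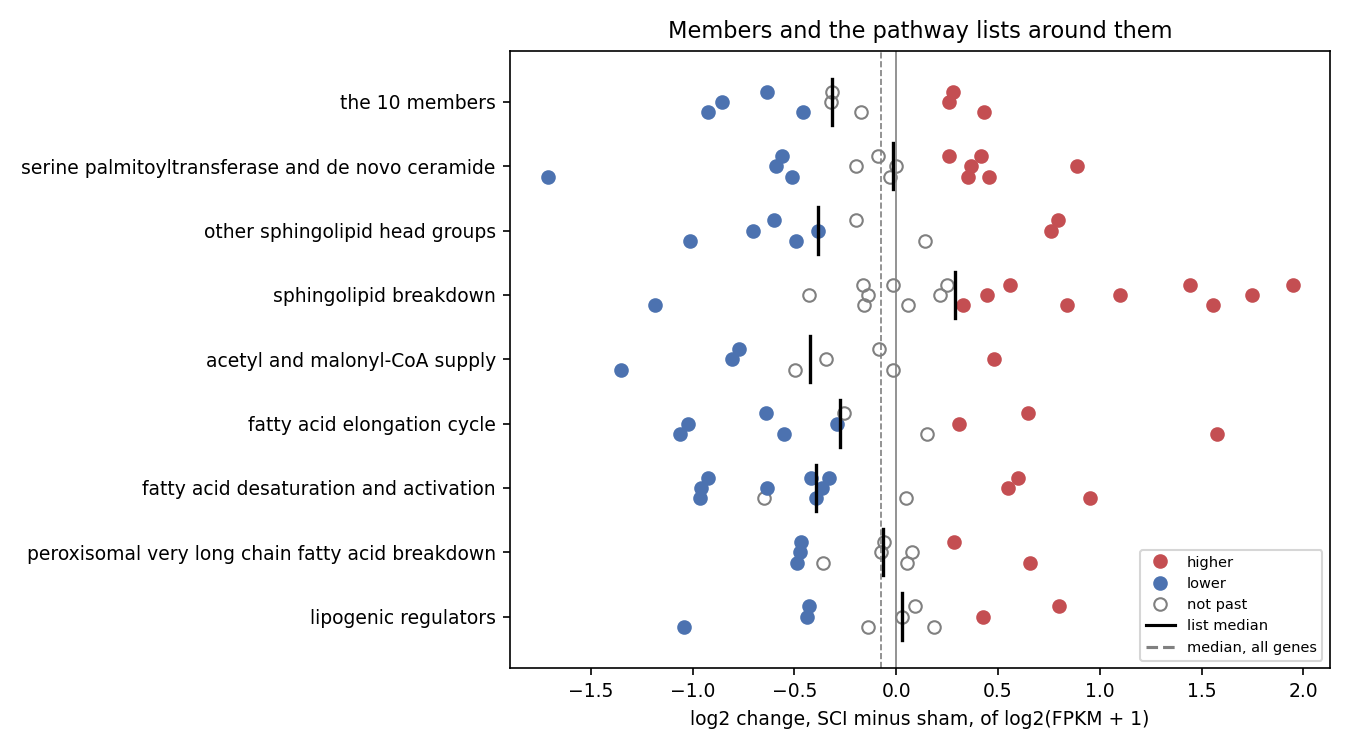
Log2 change (SCI minus sham, x axis) of each tested gene of the 10 described genes and of the 8 pathway lists (y axis), coloured by call (red higher, blue lower, open not past), with the median of each list (black bar) and of all genes tested (dashed line). Sphingolipid breakdown has the median farthest to the right (0.29) and acetyl and malonyl-CoA supply the one farthest to the left (−0.42).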

How the data were processed

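Bulk RNA-seq of 3 sham and 3 SCI libraries was analysed from 1 table per library. The values the authors deposited are FPKM per gene, per the file headers. Polyadenylated RNA was selected and the strand and molecules were marked, per the labels' protocols. StringTie 1.3.4d, HISAT2 2.0.4, edgeR, DESeq2, UMI-tools and cutadapt 1.9 were used in roles not given here, per the submitters' processing notes, which name the build mm9. The coordinates in the files are those of GRCm38: of 36502 genes shared with GENCODE M21, 33485 (91.7%) had the same position. FPKM are shares, so strong expression of some genes lowers the rest. No whole-read steps were found in the low values, so no count test was run.

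The 17435 genes that reached 1 FPKM in 3 or more libraries were tested with limma 3.58.1 in R 4.3.3 on log2(FPKM + 1), with a mean-variance trend and Benjamini-Hochberg adjustment. The fit was also run on simulated data in which far fewer genes changed and no library stood apart, and its outcome is not used here. Levels relative to markers and the Scd1 share used a two-sided exact permutation test over 20 splits. The 10 genes and all lists were chosen with earlier results of these data known. Besides the 10, the genes named were, from each list, the 2 most abundant and the 2 called genes that changed most; some of these are not reported here, and others are said to be chosen later or stand beside a result (Sptlc1, Ugcg, Srebf1 and the overlapping genes were also chosen after their values were seen). Alternatives covered the pseudocount, filters, scalings, the trend, a replicate block and leaving out each library. Genes resembling the 10 across libraries were not sought, since 6 libraries leave too few free values.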

Additional observations from a re-analysis of the deposited data

How the results depend on the processing

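No alternative reversed the direction of the SCI against sham change of any of the 10 genes. Relative to the 15 markers, the small differences of Gal3st1, Fasn and Scd1 did turn sign under some settings: Gal3st1 (−0.02) was at 0.04 and Fasn (−0.02) at 0.05 with quantile normalization, leaving out a library moved Gal3st1 between −0.13 and 0.08 and Fasn between −0.11 and 0.05, and Scd1 (0.12) was at −0.20 against the 5 most abundant markers and −0.08 without SCI replicate 2. The 3 rising and 4 falling genes numbered 1 to 3 and 2 to 5 over the fits that leave out a library, and 2 fell with no filter on low values, where Scd2 (−0.46) and Elovl7 (−0.63) no longer passed. Fasn passed with quantile normalization (−0.30), with FPKM rescaled without mitochondrial and haemoglobin genes (−0.33) and in the replicate block fit (−0.32), and Scd1 passed with quantile normalization (−0.21). Leaving out a library moved Cers2 between 0.20 and 0.31, Fasn between −0.41 and −0.19, Scd1 between −0.20 and −0.14, Scd2 between −0.53 and −0.34, Elovl7 between −0.79 and −0.39 and Sptlc2 between 0.24 and 0.31. Fits with fewer libraries have fewer degrees of freedom. Relative to the 5 most abundant oligodendrocyte markers the differences were −0.88 for Ugt8a, −0.34 for Gal3st1, −0.95 for Fa2h, 0.23 for Cers2, −0.34 for Fasn, −0.48 for Scd2 and −0.66 for Elovl7, and relative to all 15 under quantile normalization Scd2 was at −0.36. Over the fits that leave out a library, calls ranged from 5 to 9 in the elongation list (5 without SCI replicate 1), from 3 to 6 in the peroxisomal list (3 without sham replicate 3 or SCI replicate 1) and from 3 to 5 in the regulators (3 without sham replicate 3). Where not stated, the cause was not tested. Across scalings the median of all genes shifted by at most 0.07.

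The replicate numbers showed no sign of pairing the libraries: deviations of libraries with the same number correlated at −0.008, −0.039 and 0.022. Those of libraries with different numbers correlated at −0.035 to 0.038. A pairing with a small effect, or one limited to some genes, could not be seen this way. The block fit added Fasn to the falling genes (adjusted p = 0.026 in limma), making 5, and changed no other call of the 10. Without counts, the depth needed to detect the smaller changes is unknown.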
